A study of Rattus norvegicus with 63 samples.

Results

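The livers of 3 male Wistar Hanover rats given diethylstilbestrol (DES) were compared with those of 3 vehicle rats, by miRNA arrays. These 6 arrays are the 3 labelled DES and the 3 labelled as replicates 7 to 9 of the methylcellulose controls (control set 5), out of 63 arrays in 21 groups of 3 rats, and all 350 non-control miRNAs of the array were examined. DES rats received 10 mg/kg per day for 3 days by gastric gavage. The methods name carboxymethyl cellulose as the vehicle, whereas the study's overview of compounds lists MC, its short form for methylcellulose. Whether the vehicle differed from that of the controls is therefore not settled. The rats of control set 5 received methylcellulose alone, for 14 days according to their label, whereas the methods describe controls matched in time, so whether treatment time differed between the groups is not settled. Of the other vehicle rats used below, control sets 1, 2 and 6 (methylcellulose) are labelled 14 days and control set 3 (corn oil) 7 days. The animals carried no genetic modification and were 8 to 10 weeks old when assigned. The study's methods state that the rats of each treatment were picked from a larger group because their livers showed histological change. The 3 arrays of a group are taken as 1 rat each, as 3 animals of each treatment group were selected for arrays. SEs and p-values rest on the spread between rats within all 21 groups, not on the compared rats alone.

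The deposited data hold these groups in conflicting forms. In the authors' table of normalized values, the DES columns follow the scanner files labelled DHEA, and the columns of control set 5 follow those labelled methylcellulose control set 2. DHEA is dehydroepiandrosterone, an adrenal steroid and precursor of androgens and estrogens that also acts as a peroxisome proliferator in rodent liver, given to 3 rats at 600 mg/kg per day for 14 days. Over the 71 miRNAs detected on every array, these 6 columns correlated with the arrays they follow at r = 0.864 to 0.964 and with the arrays of their own label at r = -0.05 to 0.654, after the mean of each miRNA was removed. Of all 63 columns, 48 follow the array of their own label and 15 follow another. Among these 15, the DHEA columns follow the files labelled DES. The columns of control set 1, the set labelled for DHEA, follow the files labelled control set 5. Under the labels of the value table, the arrays compared as filed would thus be those of DHEA rats and their controls. Labels alone do not settle which set of arrays holds the DES livers, and the question was not tested beyond this match. Each change is therefore given as filed (scanner files under their own labels), with the table assignment (scanner files that the table's columns follow) and from the value table itself.

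DES is a synthetic nonsteroidal estrogen that binds the nuclear estrogen receptors, and it is a carcinogen in rodents and people. miRNAs are short RNAs that guide Argonaute proteins to messenger RNAs, mainly by pairing of the seed, bases 2 to 8 from the 5′ end, and lower the output of those messengers. In liver, miR-122 is the hallmark miRNA of hepatocytes, miR-192 and miR-194 are shared by hepatocytes and gut epithelium, and miR-142 and miR-223 mark blood-derived cells.

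The miRNAs on which the comparison turns are shown with the seed in capitals, from RefSeq (assembly GRCr8, 28 of 30 names matched). The pairs miR-107 with miR-103 and let-7b with let-7c are included because each pair differs at 1 base outside the seed, which limits how far hybridisation can separate them.
miR-193: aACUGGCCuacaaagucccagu
miR-365: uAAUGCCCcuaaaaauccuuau
miR-29b: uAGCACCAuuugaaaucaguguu
miR-29c: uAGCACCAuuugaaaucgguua
miR-34a: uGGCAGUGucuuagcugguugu
miR-107: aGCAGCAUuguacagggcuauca
miR-103: aGCAGCAUuguacagggcuauga
let-7b: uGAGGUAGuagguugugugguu
let-7c: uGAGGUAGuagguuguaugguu
miR-192: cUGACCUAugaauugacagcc
miR-125b-5p: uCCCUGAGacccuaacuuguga
miR-193 (chr10:65170370-65170391, plus strand) and miR-365 (chr10:65184271-65184292, plus strand) lie 13879 bases apart. miR-107 (chr1:241750431-241750453, minus strand) lies within the span of Pank1 and miR-103 (chr3:138963278-138963300, plus strand) within that of Pank2, genes of pantothenate kinases, the first enzymes of coenzyme A synthesis. let-7c has copies at chr7:118683636-118683657, 386 bases from let-7b (chr7:118684044-118684065), and at chr11:29688127-29688148, 44439 bases from a copy of miR-125b-5p (chr11:29732588-29732609), all on the plus strand. miR-29b is encoded at chr4:60618342-60618364 (minus strand) and at chr13:109098882-109098904 (plus strand, 507 bases from miR-29c). miR-34a lies at chr5:165815971-165815992 and miR-192 at chr1:212994232-212994252, both on the plus strand.

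Across the 63 arrays 162 miRNAs were detected at least once and tested. As filed, 60 of them (37%) differed between DES and control rats at an adjusted p under 0.05, with 34 higher and 26 lower in DES. With the table assignment the number was 29 of 162 (17.9%), 15 higher and 14 lower, and in the value table it was 22 of 135 (16.3%), 10 higher (7.41%) and 12 lower (8.89%). The split depends on the scaling. When the processed signal, a column the scanner software computes itself, was taken instead and scaled by the 75th percentile of always detected miRNAs, 22 were higher and 38 lower as filed, and with that of all probes 8 were higher and 24 lower as filed and 13 higher and 4 lower with the table assignment. Changes were often wider on that signal, such as 1.52 for miR-107 and -1.23 for miR-125b-5p as filed and 1.92 for miR-34a with the table assignment (always detected miRNAs). Without DES replicate 3, 39 were called as filed, and with the table assignment 17 were without DES replicate 2 and 18 without control replicate 7. All DES rats lay beyond all controls for 88 of 162 miRNAs as filed (54.3%), for 62 of 162 with the table assignment (38.3%) and for 64 of 135 in the value table (47.4%). Of the 60 calls as filed, 35 were of miRNAs well above background on all 6 arrays. Another 12 were of miRNAs well above background on no array of either group, so these rest on differences near background. Most changes were small. Among the called miRNAs only 1 as filed (miR-107), 3 with the table assignment (miR-193, miR-365 and miR-29b) and 9 in the value table exceeded a 1.5-fold difference. The value table spans a wider range than the scanner values as normalized here, from 2.55 to 14.85 against 7.34 to 14.7 log2 units for the same miRNAs. Its fold changes were often larger, and the cause was not tested.

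Scan day and slide move with the groups as filed. The DES arrays lay on slide 3 and were scanned on day 1, at a median spot brightness of 198 to 203.5 units and with 85 to 94 miRNAs detected, while those of control set 5 lay on slides 5 and 6 and were scanned on day 2, at 148 to 152 units with 107 to 114 detected. Neither a slide nor a scan day holds both groups. In a model with scan day as a term, fitted across all groups, 4 of 162 miRNAs (2.47%) were called as filed, namely miR-107, let-7d, let-7f and miR-378*, and with slide as a term only miR-107 (0.617%) was. Such adjusted changes could be estimated only through groups whose arrays were split over days or slides. Most groups were not split, so these estimates hold little information, and why calls were lost was not tested. Between set 5 and control set 6, whose arrays belong to day 1, a difference was called for 15 of 162 miRNAs (9.26%), whereas between sets 5 and 2, both of day 2, limma called 0 (1 at an unadjusted p under 0.05). The arrays of the table assignment (slides 6 and 7) were both scanned on day 2, and 31 miRNAs were called with scan day as a term (19.1%), including all 29. A day term leaves differences within 1 day unchanged, so keeping these calls does not test an effect of scan day. With slide as a term 3 were called (1.85%), miR-193, miR-365 and miR-192.

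The assignments shared 8 calls in the same direction, 5 were called in opposite directions, 47 were called only as filed and 16 only with the table assignment. The change itself differed between the assignments for 29 of 162 miRNAs (17.9%, limma on the difference of the changes). These 29 comprised all 5 with opposite calls, 16 of the 47, 6 of the 16 and 2 of the 8 (miR-365 and miR-29b).

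**Figure D1:**
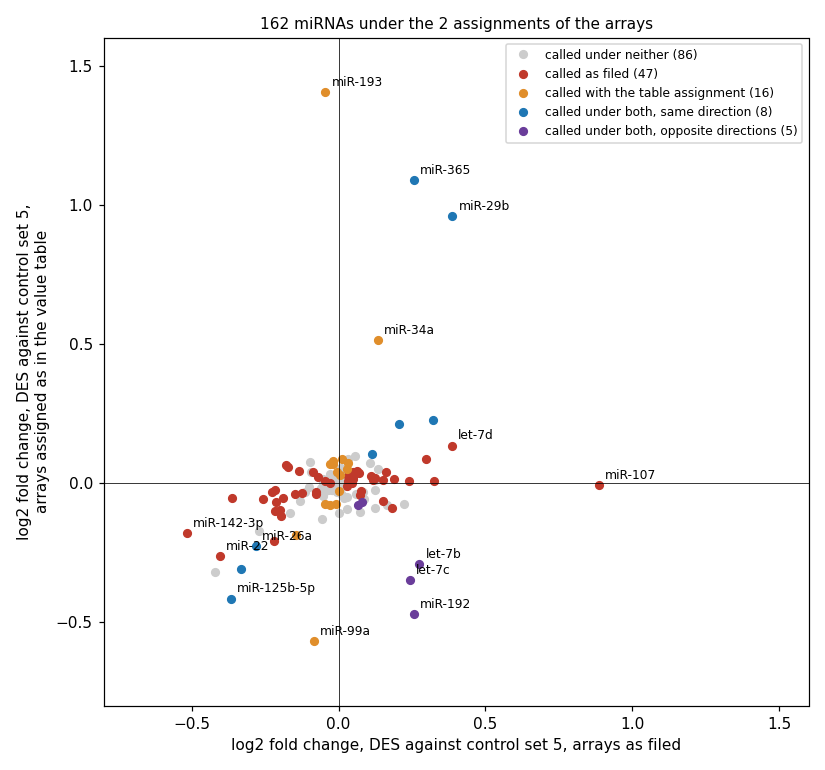
Log2 fold change of DES over control set 5 for 162 miRNAs, with arrays as filed on the x axis and arrays assigned as in the value table on the y axis. miR-107 lies far to the right at 0.89 and -0.01, miR-193 far up at -0.04 and 1.40, and the 5 miRNAs in purple were called in opposite directions.

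From every source 5 miRNAs were called in the same direction. miR-365, miR-29b and miR-335 were higher and miR-125b-5p and miR-26a lower in DES rats as filed, with the table assignment and in the value table, which shares its arrays with the table assignment. miR-365, encoded near miR-193, as filed measured 8.98, 8.87 and 8.87 log2 units in the DES rats and 8.66, 8.57 and 8.73 in the controls. The DES rats were all higher, by 0.26 ± 0.06 (SE, n = 3 per group, adjusted p = 0.00152). Under the table assignment the levels were 9.66, 9.78 and 9.65 against 8.61, 8.62 and 8.60. The gap was far wider than the spread of either group. This difference of 1.09 ± 0.06 (adjusted p = 3.8e-19, 2.12-fold) exceeded that as filed (adjusted p = 2.1e-10 for the difference of the changes), and the value table gave 1.68 ± 0.14. Against the vehicle rats of the scan day of the DES arrays, the change as filed was 0.26 (control set 6) and against the corn oil rats on the same slide it was 0.30 (control set 3), both called, whereas it was 0.25 and not called with scan day as a term. The call as filed was also lost with the processed signal scaled by always detected miRNAs (0.21, adjusted p = 0.176) or by all probes (0.20, adjusted p = 0.519).

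miR-29b belongs to the miR-29 family, which represses collagens and other matrix genes. As filed it measured 9.76, 9.79 and 9.89 in DES rats and 9.34, 9.60 and 9.34 in controls. All DES rats were higher, by 0.39 ± 0.13 (adjusted p = 0.0199), but the call was lost without DES replicate 3, without control replicate 7 or 9, with scan day or slide in the model, and against corn oil control set 3 (0.32). Under the table assignment the levels were 10.35, 10.54 and 10.40 against 9.56, 9.51 and 9.35. There the groups stood wide apart, by 0.96 ± 0.13 (adjusted p = 2.98e-07), and in the value table by 1.19 ± 0.16. The change with the table assignment was the larger (adjusted p = 0.0251).

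miR-125b-5p, abundant in many differentiated tissues and encoded beside let-7 copies, measured 8.49, 8.49 and 8.36 in DES rats and 8.76, 8.87 and 8.80 in controls as filed. All DES rats were lower, by -0.37 ± 0.08 (adjusted p = 0.000382). The table assignment gave 8.44, 8.34 and 8.40 against 8.76, 8.81 and 8.85, a difference of -0.41 ± 0.08 (adjusted p = 4.97e-05). The change did not differ between the assignments at this precision (adjusted p = 0.803), and the value table gave -1.03 ± 0.21 (2.04-fold lower). Against control set 6 the change as filed was -0.22 and called, and against corn oil control set 3 it was -0.18 and not called.

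miR-26a, which targets Ezh2 and cyclins and is low in many liver tumors, was lower by -0.28 ± 0.07 as filed, -0.23 ± 0.07 with the table assignment and -0.29 ± 0.10 in the value table (adjusted p = 0.00292, 0.0297 and 0.032). miR-335, from an intron of the imprinted gene Mest, was higher by 0.11 ± 0.04, 0.11 ± 0.04 and 0.70 ± 0.24 (adjusted p = 0.0121, 0.0379 and 0.032). The calls of miR-26a and miR-335 with the table assignment and in the value table were each lost without any of 5 of the 6 rats, and that of miR-335 as filed without DES replicate 2 or control replicate 8. On the processed signal the change of miR-26a with the table assignment was -0.11 (always detected, adjusted p = 0.319) or -0.0362 (all probes, adjusted p = 0.993), and its call as filed was lost against corn oil control set 3 (-0.16, adjusted p = 0.147) and with all-probe scaling (-0.37, adjusted p = 0.0938). miR-335 was called with neither scaling under either assignment, nor as filed against control set 6 (0.0597) or corn oil control set 3 (0.0727). The other 3 shared calls, let-7f and miR-20a higher and miR-101b lower, were not called in the value table. As filed, the call of miR-101b was lost without DES replicate 2 or 3 or control replicate 8 or 9. With the table assignment it was lost without DES replicate 1, 2 or 3 or control replicate 7 or 8.

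**Figure D2:**
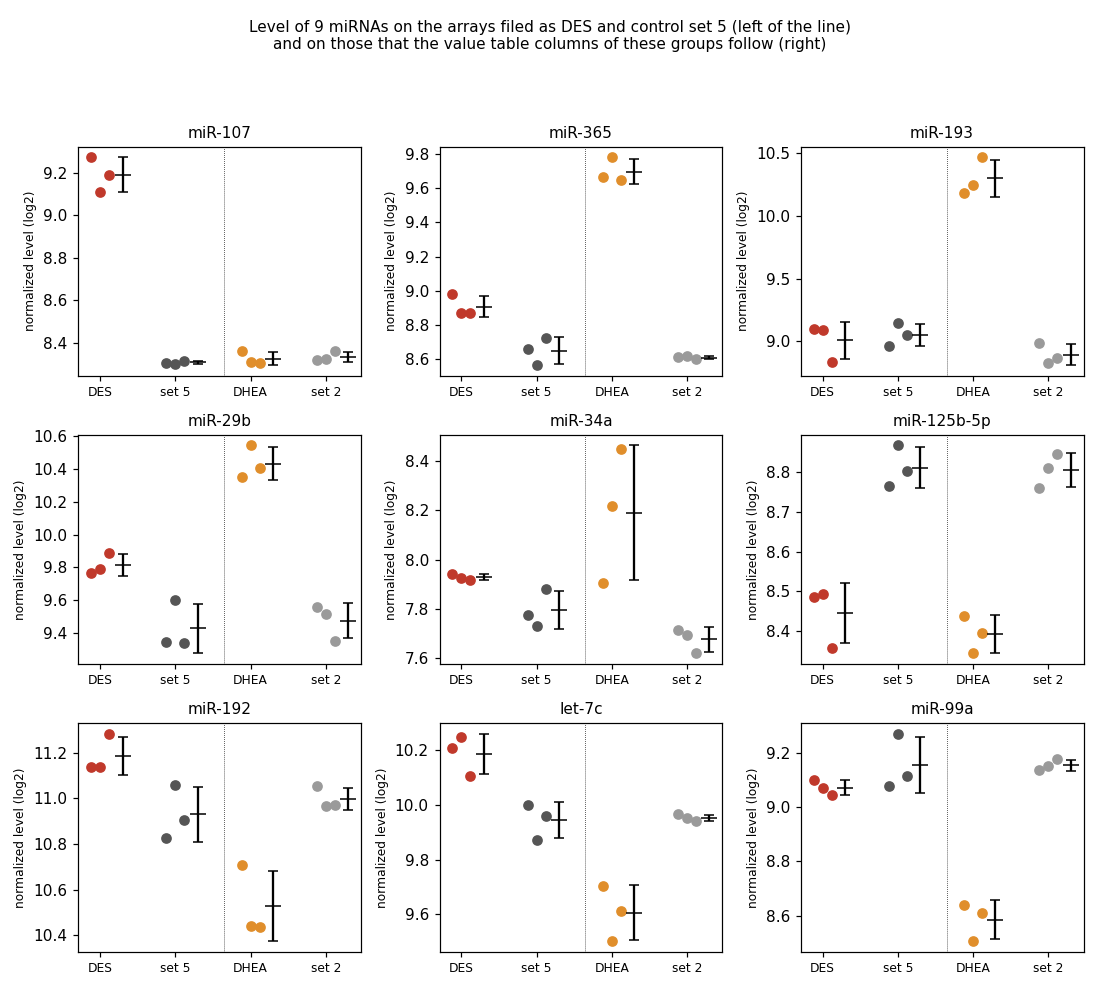
Normalized level (log2) of 9 miRNAs on each array, as 3 points per group with mean and SD at their right. Arrays filed as DES and control set 5 stand left of the dotted line, and arrays filed as DHEA and control set 2, which the DES and set 5 columns of the value table follow, stand right of it; miR-107 is raised only in the left pair and miR-193 only in the right pair.

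The direction of 5 miRNAs depends on the assignment. let-7b, let-7c, miR-192, miR-212 and miR-221 were higher in DES rats as filed and lower with the table assignment and in the value table. let-7b and let-7c belong to the let-7 family, which restrains growth genes such as Hmga2, Ras genes and Lin28. let-7c measured 10.21, 10.25 and 10.11 in DES rats and 10.00, 9.87 and 9.96 in controls as filed. The table assignment gave 9.70, 9.50 and 9.61 against 9.97, 9.95 and 9.94. In both cases the groups did not overlap, but with opposite order, with changes of 0.24 ± 0.06 and -0.35 ± 0.06 (adjusted p = 0.00223 and 2.17e-05; difference of the changes, 7.53e-07). For let-7b the changes were 0.28 ± 0.07 and -0.29 ± 0.07 (adjusted p = 0.00165 and 0.00131). With the processed signal scaled over all probes, let-7b, let-7c and miR-192 kept these directions but were called under neither assignment.

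miR-192, a hepatocyte and epithelial miRNA linked to p53, measured 11.14, 11.14 and 11.28 in DES rats and 10.82, 11.06 and 10.91 in controls as filed. With the table assignment it measured 10.71, 10.44 and 10.44 against 11.05, 10.96 and 10.97. It was thus higher by 0.26 ± 0.07 on the filed arrays and lower by -0.47 ± 0.07 on the others (adjusted p = 0.00357 and 7.55e-07; difference of the changes, 1.13e-07). Of the 21 groups, the arrays filed as DES had the highest mean level of miR-192, at 11.19, while the lowest of the 6 vehicle groups averaged 10.89 and all 6 lay below the DES arrays. The direction as filed was the same against control set 6 (0.26) and corn oil control set 3 (0.29), both called. The DES columns of the value table averaged 10.28 ± 0.15 and those of control set 5 10.85 ± 0.05, a change of -0.56 ± 0.10.

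miR-221 was not well above background on any array of either group as filed, and miR-212 only on part of the arrays, so their opposite calls rest on differences near background. They were 0.07 and -0.08 log2 units for miR-221 and 0.08 and -0.07 for miR-212.

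Other miRNAs were called as filed and not with the table assignment. The largest change of the filed arrays was that of miR-107, which with miR-103 has been linked to insulin signalling and lipid metabolism in liver. miR-107 measured 9.27, 9.11 and 9.19 in DES rats and 8.31, 8.30 and 8.32 in controls, a gap far wider than the spread of either group. The difference was 0.89 ± 0.05 (adjusted p = 3.63e-20, 1.85-fold). With the table assignment the levels were 8.36, 8.31 and 8.31 against 8.32, 8.32 and 8.36. These groups overlapped, and the difference was -0.01 ± 0.05 (adjusted p = 0.957; difference of the changes, 1.02e-14). In the value table it was -0.03 ± 0.12. The rise as filed was 0.81 with scan day and 0.92 with slide in the model, 0.81 against control set 6 and 0.74 against corn oil control set 3, each called. Among the 21 groups, the arrays filed as DES had the highest level, 9.19 ± 0.08, followed by those of Wy-14643, an agonist of the nuclear receptor PPAR alpha given for 3 days, at 9.14 ± 0.04. The other 19 groups averaged 8.20 to 8.56, the arrays filed as DHEA 8.33 ± 0.03. miR-103, which has the same seed, rose by 0.15 ± 0.03 as filed (adjusted p = 4.06e-05) and measured -0.06 ± 0.03 with the table assignment (adjusted p = 0.119). Its call as filed was lost with scan day in the model (0.0739) and with the processed signal scaled by always detected miRNAs (0.0727, adjusted p = 0.572) or all probes (0.0610, adjusted p = 0.879).

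**Figure D3:**
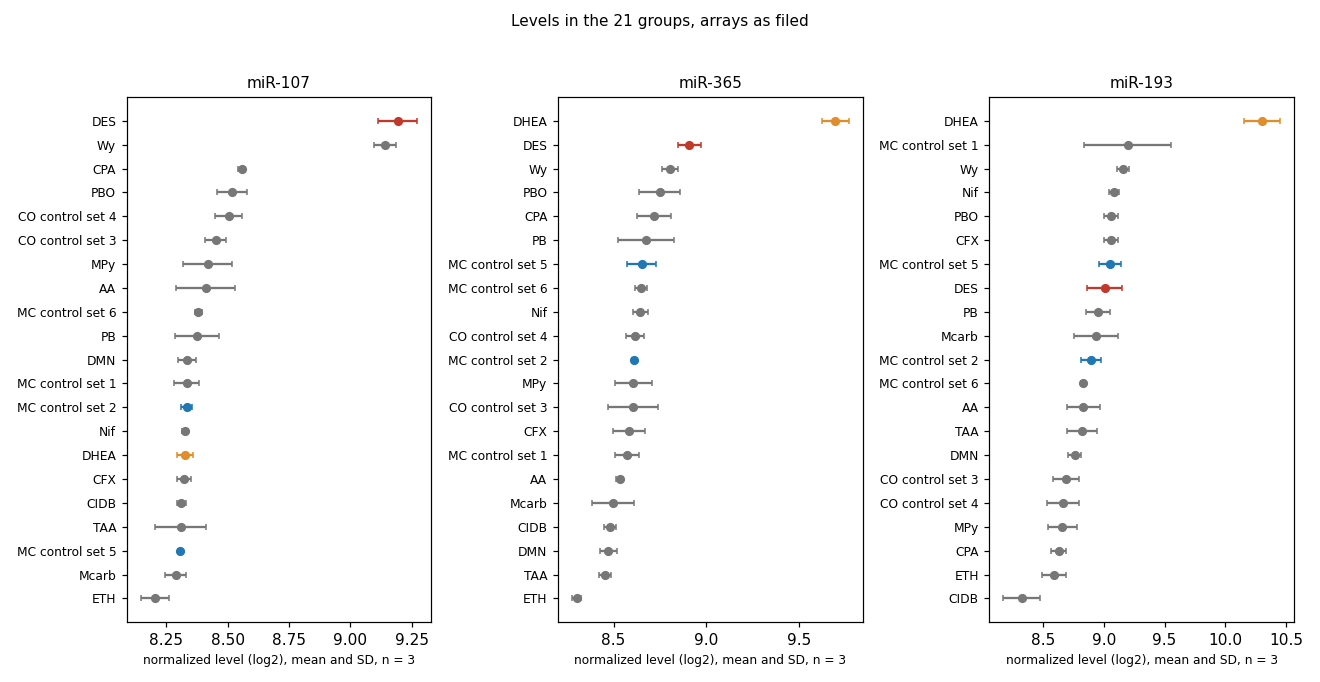
Mean level (log2) and SD over 3 rats of miR-107, miR-365 and miR-193 in the 21 groups with arrays as filed, ordered by level; DES is red, DHEA orange, and control sets 5 and 2 blue. DES and Wy stand apart for miR-107 at 9.19 and 9.14, and DHEA stands apart for miR-365 at 9.70 and for miR-193 at 10.3.

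Members of the let-7 family apart from those above moved with miR-107 in the filed arrays. let-7d rose by 0.39 ± 0.06 and let-7i by 0.33 ± 0.05 (both adjusted p = 1.72e-05). let-7d measured 9.58, 9.72 and 9.68 in DES rats and 9.33, 9.19 and 9.30 in controls, with no overlap. Its change with the table assignment, 0.13 ± 0.06, did not pass the test (adjusted p = 0.155) and differed from that as filed by a narrow margin (adjusted p = 0.0469). In all, 6 of 9 tested let-7 members (1 of 9 with the processed signal scaled over all probes) were higher and 0 lower as filed (median 0.21, against -0.00102 over all 162 miRNAs, of which 21% were higher and 16% lower), while 1 was higher and 2 lower with the table assignment (median 0.01 against -0.00452, with 9.26% of all miRNAs higher and 8.64% lower) and 0 were higher and 2 of 8 lower in the value table. Of the 2 others among the 10 largest increases, miR-20a of the growth-promoting miR-17 to miR-92 cluster rose by 0.32 ± 0.08 (0.0475 against control set 6 and 0.12 against corn oil control set 3, neither called) and miR-29a by 0.30 ± 0.08.

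Among called miRNAs without overlap between the groups, the 10 largest decreases as filed were those of miR-142-3p (-0.52 ± 0.12), miR-22 (-0.41 ± 0.12), miR-125b-5p, miR-139-3p, miR-101b (-0.33 ± 0.11), miR-26a, miR-324-3p, miR-24 (-0.23 ± 0.05), miR-21 (-0.22 ± 0.08) and miR-23b (-0.22 ± 0.05). miR-139-3p and miR-324-3p were not well above background on any DES array and were at least 1.17-fold and at least 1.09-fold lower than in control set 5. Both bounds hold only against set 5, which was scanned on another day than the DES arrays. Against control set 6, of the same scan day, neither was called (adjusted p = 0.95 for miR-139-3p and 0.464 for miR-324-3p). Neither was called against corn oil control set 3 (adjusted p = 0.888 and 0.984). miR-142-3p, a miRNA of blood-derived cells, measured 8.16, 8.26 and 8.06 in DES rats and 8.67, 8.70 and 8.66 in controls. miR-22, which is among the miRNAs reported to bind the estrogen receptor alpha messenger, measured 11.38, 11.37 and 11.20 against 11.63, 11.77 and 11.76. Neither miRNA overlapped between the groups as filed, and both overlapped with the table assignment, at -0.18 ± 0.12 (adjusted p = 0.357) and -0.26 ± 0.12 (adjusted p = 0.125). For neither did the change differ between the assignments at this precision (difference of the changes, adjusted p = 0.163 and 0.584). Of the 7 tested members of the clusters of miR-23, miR-24 and miR-27, 5 were lower and 0 higher as filed (median -0.21, against 16% of all miRNAs lower), and with the table assignment 0 were called (median -0.03, against 17.9% called in either direction). Among the 5, the change itself differed between the assignments for miR-24 (adjusted p = 0.0469) and for no other member.

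The largest changes as filed were also set against other reference rats, which differ from DES rats in labelled treatment time and, for control set 3, in vehicle. Of the 10 largest increases 8 were also called against control set 6 of the same scan day and 6 against the corn oil rats on the same slide, and all 10 kept their sign. Of the 10 largest decreases 2 were called against control set 6 (miR-125b-5p and miR-26a) and 2 against the corn oil rats (miR-24 and miR-23b), and 9 kept their sign, the exception being miR-139-3p at 0.02 and 0.03. The difference between increases and decreases was not tested. Over all miRNAs, 28 of 162 were called against control set 6 (17.3%) and 21 of 162 against corn oil control set 3 (13%). miR-22 fell to -0.10 and -0.04 and miR-142-3p to -0.26 and -0.20 in these comparisons, none of them called.

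**Figure D4:**
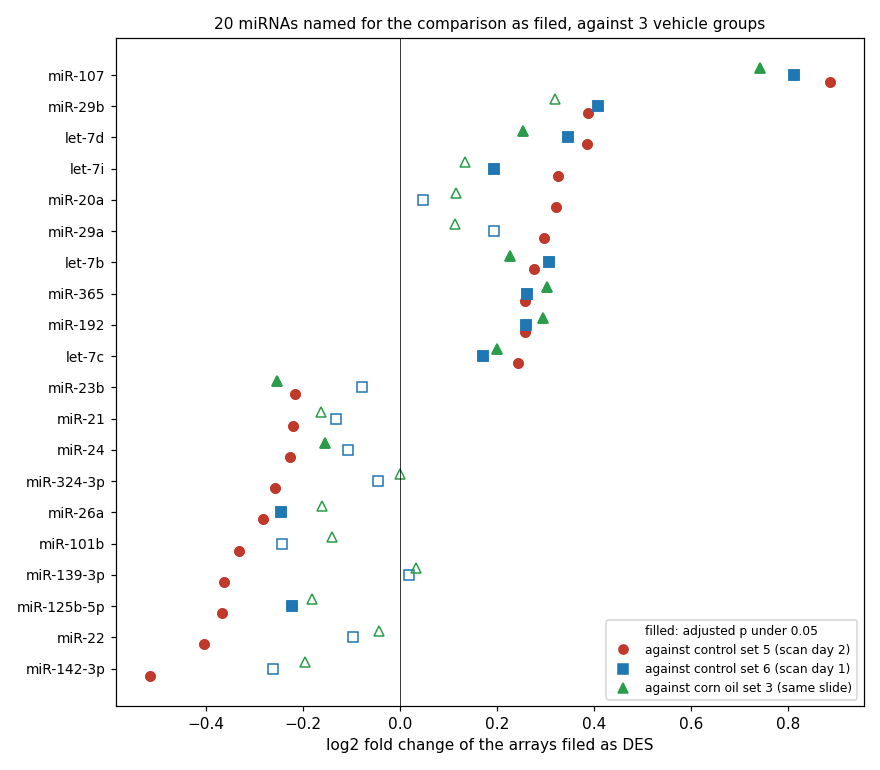
Log2 fold change of the arrays filed as DES for the 10 largest increases and 10 largest decreases, against control set 5, against control set 6 of the same scan day and against corn oil control set 3 of the same slide; filled symbols mark an adjusted p under 0.05. miR-107 lies between 0.74 and 0.89 against all 3, while miR-22 moves from -0.41 to -0.10 and -0.04.

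A further group changed with the table assignment and in the value table. The largest change of these arrays was that of miR-193, whose known targets include Mcl1 and the urokinase messenger. It measured 10.18, 10.25 and 10.47 in the arrays assigned to DES and 8.99, 8.83 and 8.87 in those assigned to the controls. Each DES rat was more than 1 log2 unit above every control, and the difference was 1.40 ± 0.11 (adjusted p = 3.77e-15, 2.65-fold). As filed, the levels of 9.10, 9.09 and 8.84 against 8.97, 9.14 and 9.05 overlapped, with a difference of -0.04 ± 0.11 (adjusted p = 0.733; difference of the changes, 1.18e-10). The value table gave 9.72, 9.84 and 10.09 against 8.15, 7.83 and 7.91, a change of 1.92 ± 0.19. miR-193*, the other arm of the same hairpin, rose by 0.55 ± 0.08 in the value table, and in the scanner files it was well above background on 2 of the 3 arrays assigned to DES and on none of their controls. Of the 21 groups, the arrays filed as DHEA had the highest level of miR-193, 10.30 ± 0.15, with the next group at 9.20, and the highest of miR-365, 9.70 ± 0.07, with the arrays filed as DES next at 8.91. All 3 tested members of the miR-193 and miR-365 cluster were thus called higher with the table assignment (median 1.09, against 9.26% of all miRNAs higher), and 1 of 3 was as filed (against 21%). miR-193*, which shares its hairpin with miR-193, rose by only 0.0871 with the table assignment.

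miR-34a is a direct target of p53 and slows the cell cycle. With the table assignment it measured 7.91, 8.22 and 8.45 in DES rats and 7.71, 7.69 and 7.62 in controls. The DES rats differed widely among themselves but all lay above the controls, by 0.52 ± 0.12 on the mean (adjusted p = 0.00148). In the value table the same rats measured 5.79, 6.69 and 7.31 against 4.76, 4.66 and 4.24, which was the largest increase there (2.04 ± 0.29, adjusted p = 2.32e-07). As filed the difference was 0.13 ± 0.12 (adjusted p = 0.396). The difference between the assignments did not pass the test (adjusted p = 0.128), but did with normexp (0.0496) and with the processed signal scaled by always detected miRNAs (0.0022) or all probes (0.00538). Neither of the other tested members, miR-34b and miR-34c, was called as filed or with the table assignment, although miR-34b was called higher as filed with either scaling of the processed signal.

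miR-99a, encoded with let-7c and miR-125b and reported to target Mtor, measured 8.64, 8.50 and 8.61 in DES rats and 9.13, 9.15 and 9.18 in controls with the table assignment. The DES rats were all lower, by -0.57 ± 0.09 (adjusted p = 1.39e-06), and in the value table by -0.99 ± 0.14. As filed the difference was -0.08 ± 0.09 (adjusted p = 0.46), a smaller change than with the table assignment (adjusted p = 0.00273). In the families of miR-99, miR-100 and miR-125, 3 of 7 members were lower and 0 higher with the table assignment (miR-99a, miR-100 and miR-125b-5p, against 8.64% of all miRNAs lower), the same 3 of 6 in the value table, and 2 of 7 as filed (miR-125b-5p and miR-125a-3p, against 16% lower), or 4 of 7 with the processed signal scaled by always detected miRNAs. miR-21, raised in many injured livers and tumors, was lower by -0.71 ± 0.17 in the value table (adjusted p = 0.00185), by -0.22 ± 0.08 as filed (adjusted p = 0.0359) and by -0.21 ± 0.08 with the table assignment, where it did not pass (adjusted p = 0.0847). Its call as filed was lost without DES replicate 2 or 3 or control replicate 8 or 9 (adjusted p = 0.0939 to 0.144).

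**Figure D5:**
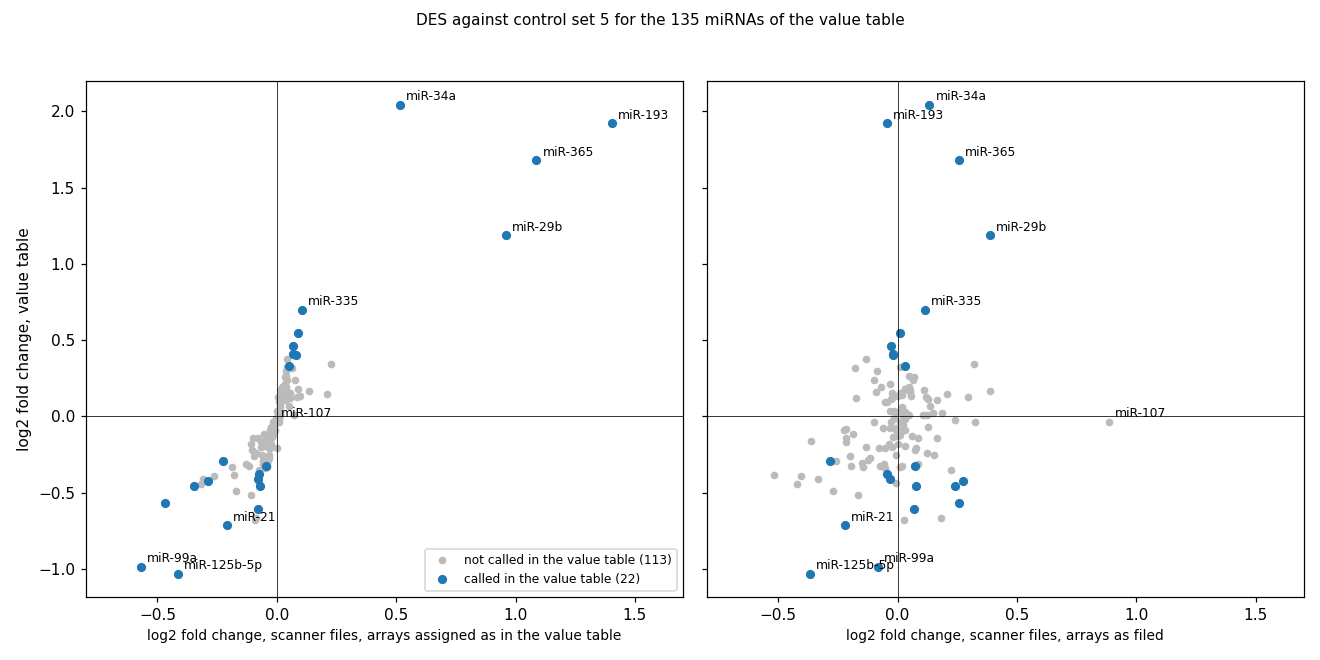
Log2 fold change in the value table (y axis) against that in the scanner files for 135 miRNAs, with arrays assigned as in the value table on the left and as filed on the right. On the left the points form a band with miR-34a, miR-193, miR-365 and miR-29b at its upper end; on the right miR-193 stands near 0 on the x axis and miR-107 near 0 on the y axis.

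The value table and the scanner files of the table assignment are 2 readings of the same arrays. They shared 20 calls in the same direction, of 22 in the table and 29 in the scanner files. Only 6 of the table's 22 calls matched a call as filed in direction. Among called miRNAs, the 5 largest increases in the table were those of miR-34a, miR-193, miR-365, miR-29b and miR-335, and the 5 largest decreases those of miR-125b-5p, miR-99a, miR-21, miR-221 (-0.60 ± 0.15) and miR-192.

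Cell type markers were examined in the same way. Their counts are to be read against 21% of all miRNAs higher and 16% lower as filed. With the table assignment these shares were 9.26% and 8.64%. On the processed signal as filed, 22 of 162 were higher and 38 lower (always detected), or 8 higher and 24 lower (all probes). In these bulk samples fewer cells of a type and less RNA per cell cannot be told apart. miR-122 measured 14.58 to 14.65 in DES rats and 14.66 to 14.67 in controls as filed, and its change was not called from any source (-0.0527 ± 0.0322 as filed and -0.000782 ± 0.0322 with the table assignment), but was called as filed with the processed signal scaled by the 75th percentile of always detected miRNAs (-0.46) or all probes (-0.48). Quantile normalization gives the brightest spots of all arrays the same values. miR-122 lay near the top of that scale (14.7), so its normalized level had little room to change. Of the 5 tested hepatocyte miRNAs 2 were higher and 0 lower as filed, but 1 and 2 with the processed signal scaled by always detected miRNAs, and 0 were higher and 2 lower with the table assignment. The summed level of the 5 hepatocyte miRNAs, which lies close to that of miR-122 and is limited in the same way, ranged from 14.76 to 14.82 log2 units in DES rats and from 14.80 to 14.83 in controls as filed. Of the 6 leukocyte miRNAs 2 were lower as filed (miR-142-3p and miR-142-5p, median -0.0639, against 16% of all miRNAs lower) and 0 with the table assignment. On the processed signal 4 (always detected, median -0.52) or 3 (all probes, median -0.52) were lower as filed. miR-223, a defining miRNA of myeloid cells, measured -0.09 ± 0.05 and 0.04 ± 0.05, neither called, although miR-223 was lower as filed with the processed signal scaled by always detected miRNAs (-0.60). The summed leukocyte level was 10.34 to 10.43 in DES rats and 10.52 to 10.54 in controls as filed, without overlap, and 10.40 to 10.57 against 10.49 to 10.58 with the table assignment. The part of these cells in the decreases as filed was not tested. The erythroid miR-144 and miR-451 were not called under either assignment, and their summed levels overlapped (9.30 to 9.94 against 9.82 to 10.40 as filed), while miR-144 was called lower as filed with that scaling (-1.38). Of 7 stellate, smooth muscle and endothelial miRNAs, 1 was called as filed (miR-126*, lower), and miR-126 (0.13 ± 0.06) and miR-143 (-0.13 ± 0.06) were not, the latter called with that scaling (-0.49). None of these markers was listed at a level of 0, since the array gives a brightness for every probe.

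In further lists the calls are to be read against 21% of all miRNAs higher and 16% lower as filed, and 9.26% and 8.64% with the table assignment. Some called list members were well above background on few of the 63 arrays. Examples are miR-18a and miR-30b-3p on 1 each, miR-125a-3p, named above, on 2 and miR-409-3p on 5. No called list member changed sign with normexp background correction or with either scaling of the processed signal, although calls were lost. Of 10 tested members of the miR-17 to miR-92 cluster and its paralogs 5 were higher as filed (2 and 0 with the 2 scalings of the processed signal) and 3 with the table assignment, with 0 lower, and miR-20a was the only member called higher under both (0.23 ± 0.08 with the table assignment, adjusted p = 0.0409). That call was lost without DES replicate 2 (0.13, adjusted p = 0.407), control replicate 7 or control replicate 8. Of 5 miR-29 family members 3 were higher as filed (0 with all-probe scaling) and 1 with the table assignment. Of 9 miR-30 members 3 were lower and 1 higher as filed (4 and 0 with the processed signal scaled by always detected miRNAs), and 0 were called with the table assignment. Of 4 tested miRNAs reported to target the estrogen receptor alpha messenger, 1 was higher (miR-221) and 1 lower (miR-22) as filed, and 1 was higher (miR-18a) and 1 lower (miR-221) with the table assignment. Of 4 tested miR-26 and miR-101 members 2 were lower under both assignments (miR-26a and miR-101b, whose calls were lost without single rats as given above). On the processed signal 3 (always detected) or 0 (all probes) were lower as filed and 0 with the table assignment. Tested were 6 members of the miR-15 family and only 1 each of the families of miR-181 and miR-425. The latter were not well above background on all 6 arrays as filed. In these 3 families 0 members were called under either assignment. In the miR-200 family 1 of 5 was called as filed (miR-429, higher) and 0 with the table assignment. Of the imprinted Dlk1-Dio3 cluster 41 miRNAs are on the array and 3 were tested, of which 1 (miR-409-3p) was lower as filed.

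DES rats were also compared with rats given piperonyl butoxide (PBO), an inhibitor of cytochrome P450 enzymes, at 1200 mg/kg per day for 3 days, since both treatments lasted equally long. The PBO arrays were scanned on day 2 on slide 6 and so share neither scan day nor slide with the DES arrays as filed. The arrays that the table assignment gives to DES lay on slide 6 too and were also scanned on day 2. The 2 assignments thus differ in whether slide and scan day move with the groups, and the part of this was not tested. As filed, 57 of 162 miRNAs differed (35.2%), 38 higher and 19 lower in DES (33 without PBO replicate 3, and 20 higher and 26 lower with the processed signal scaled by always detected miRNAs or 16 and 17 by all probes), and with the table assignment 43 did (26.5%), 18 of them called in the same direction as filed. This comparison shares the DES arrays with those above. With scan day in the model 5 remained called as filed, miR-107 among them (0.60), whereas the calls of miR-34a (adjusted p = 0.0767), miR-29b (0.172), miR-451 (0.204) and miR-365 (0.216) were lost. miR-107 was higher than in PBO rats as filed (0.68 ± 0.05) and lower with the table assignment (-0.19, adjusted p = 0.00205). miR-193 and miR-365 stood 1.24 and 0.95 above PBO rats with the table assignment (adjusted p = 2.77e-13 and 6.36e-17), against -0.05 and 0.16 as filed. miR-29b averaged 10.21 ± 0.20 in PBO rats, so that DES rats were lower as filed (-0.39, adjusted p = 0.0186), and it was not called with the table assignment (0.23, adjusted p = 0.233). miR-34a was higher than in PBO rats as filed (0.36, adjusted p = 0.0186) and with the table assignment (0.62, adjusted p = 0.000115). miR-451 was lower under both, by -1.07 as filed (adjusted p = 0.0148) and -0.90 with the table assignment (adjusted p = 0.0494).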

How the data were processed

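The members and lists were chosen with earlier results of these data known. Spot intensity in the scanner files was, per the file headers, read by Agilent Feature Extraction 10.7.3.1, with no normalization by the authors. The authors' deposited value table holds normalized log2 values of 135 miRNAs, for which the submitters' processing notes name RMA. Sequences, coordinates and neighbouring genes are from RefSeq tables (assembly GRCr8).

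Here, outlier-flagged and control spots were left out. The mean signal was quantile normalized without background correction, averaged over spots of a probe, log2 transformed and summarised by median polish over the 1 to 4 probes of a miRNA. The 162 miRNAs detected on at least 1 of 63 arrays were tested with limma 3.58.1 (R 4.3.3) over all 21 groups, with Benjamini-Hochberg adjustment and a threshold of 0.05. With only the compared groups in the limma fit, p-values were often far larger. The adjusted p was then 0.000225 for miR-107 as filed, and 5.2e-05 for miR-365 and 0.000574 for miR-193 with the table assignment. Each column of the value table was matched to the array with which it correlated best across 71 miRNAs. The number of arrays limits precision. Only the limma step was tested on simulated data, which held no effect of slide or scan day.

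Alternatives were the processed signal scaled by the 75th percentile, normexp background correction (offset 50), other detection filters, slide or scan day in the model, other vehicle rats, other assignments of the arrays and leaving out each rat. DES against PBO with the table assignment, all methylcellulose rats with scan day in the model, and same-day methylcellulose arrays as controls were chosen after seeing the data. Named miRNAs are, among those called, the 10 largest increases and decreases as filed without overlap between groups, miRNAs called alike from every source or oppositely under the assignments, the 5 largest called changes each way in the value table and up to 10 list members. let-7f, miR-378*, miR-34b, miR-34c, miR-18a, miR-29c, miR-142-5p, miR-126*, miR-125a-3p, miR-429 and miR-409-3p were named after their values were seen.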

Additional observations from a re-analysis of the deposited data

How the results depend on the processing

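No paired analysis was possible because the DES rats (replicates 1 to 3) and their controls (7 to 9) share no replicate numbers. The number of called miRNAs as filed, 60, became 32 with the processed signal scaled over all probes, 1 with slide as a fixed term and 37 as a random term, 4 with scan day, 28 against control set 6, 21 against corn oil set 3, 24 with only the treated arrays reassigned, 22 in the value table, 29 with the table assignment and 14 with all methylcellulose rats and scan day (chosen after seeing the data). Leaving out a rat gave 39 to 56. With the table assignment, 29 became 17 (all-probe scaling), 3 (slide, fixed), 17 (slide, random) and 17 to 27 without a rat. In the value table, 22 became 3 with slide as a fixed term, 35 against all methylcellulose rats and 15 to 19 without a rat. The difference between the assignments, called for 29, was called for 2 (slide, fixed), 17 (slide, random), 12 (scan day) and 23 to 31 without a rat, and its median over all miRNAs moved to -0.16 with all-probe scaling. DES against PBO, 57, became 33 (all-probe scaling), 3 (slide, fixed), 33 (slide, random), 5 (scan day), 33 (groups compared alone), 43 (table assignment, chosen after seeing the data) and 33 to 60 without a rat. Control sets 5 and 6 differed in 15, which became 25 and 8 with the 2 scalings of the processed signal (always detected, all probes), 23 without a detection filter, 3 and 2 with slide as a fixed and a random term and 0 with scan day. Sets 2 and 6 differed in 11, which became 22, 5, 19, 1, 0 and 0 in the same order. For all these changes the cause was not tested.

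Among the named miRNAs whose change was called in the main setting or under the alternative, the following turned sign. Changes called in neither also turned in places and are not listed. Of the changes as filed, those that turned with the table assignment were let-7b (-0.29), let-7c (-0.35), miR-103 (-0.0637), miR-107 (-0.00734), miR-192 (-0.47), miR-193 (1.40), miR-212 (-0.0686) and miR-221 (-0.0800). In the value table they were let-7b (-0.42), let-7c (-0.46), let-7i (-0.0391), miR-103 (-0.25), miR-107 (-0.0331), miR-192 (-0.56), miR-193 (1.92), miR-212 (-0.46) and miR-221 (-0.60). With only the treated arrays reassigned they were let-7b (-0.23), let-7c (-0.34), miR-103 (-0.0351), miR-192 (-0.40), miR-193 (1.25), miR-212 (-0.0287) and miR-221 (-0.0732). With slide as a fixed term they were let-7b (-0.0853), miR-101b (0.0682), miR-139-3p (0.31), miR-21 (0.0818), miR-212 (-0.0107), miR-22 (0.21) and miR-24 (0.00638). Against corn oil set 3 they were miR-139-3p (0.0317), miR-193 (0.32) and miR-212 (-0.0148), against control set 6 miR-139-3p (0.0186) and miR-212 (-0.0360), and with all methylcellulose rats and scan day miR-139-3p (0.0647). With slide as a fixed term let-7b also turned with the table assignment (0.0217) and in the value table (0.14), and the difference between the assignments turned for let-7b (-0.11), let-7d (-0.0661), miR-24 (0.22) and miR-29b (0.0390). Against PBO with the table assignment, miR-107 (-0.19), miR-193 (1.24) and miR-29b (0.23) turned. Of the values of single miRNAs across the alternatives, 597 as filed and 556 with the table assignment kept direction and side of the threshold, while 159 and 80 lost their call.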
